A study of Mus musculus with 12 samples.

Results

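Gene expression was compared between a pair of clones of mouse embryonic stem (ES) cells that carry the same label, knockout of the branched-chain amino acid transaminase gene Bcat1. The members are the 2 libraries titled as knockout 2 (clone 2 below) and the 2 titled as knockout 1 (clone 1), chosen by these titles alone, out of 12 samples in the series. All genes with a single position on an autosome were examined, and 14012 of them passed the filter on low counts. Both clones and the wild type (WT) come from E14, an ES line from a male embryo, grown with serum, LIF and the kinase inhibitor pair known as 2i, per the labels' protocols. WT has 2 libraries, shown beside the clones, and the other 6 samples, labelled by day, were not analysed here. Each knockout genotype here is 1 line, and how the clones were made is not given in the sources used here. Ribosomal RNA was removed from total RNA before sequencing, so RNAs without a poly(A) tail can be counted too. Because the labels do not say that libraries of a clone came from separate cultures, the p-values reflect a spread between libraries that may be only technical, and they compare these 2 clones, not 2 genotypes.

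Clones of an ES line are each grown from few cells or a single cell and can differ in DNA methylation, in imprinted gene expression and in chromosome content before any edit is made. ES cells in 2i and LIF stay in a naive pluripotent state, with low activity of the ERK pathway and low DNA methylation. Bcat1 encodes the cytosolic enzyme that moves the amino group of leucine, isoleucine and valine to 2-oxoglutarate, which makes glutamate. When amino acids run short, translation of the transcription factor Atf4 increases, and Atf4 activates genes for amino acid import and for synthesis of serine, glycine, proline and asparagine.

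Bcat1 RNA itself was measured in every library, at 642 and 684 CPM (counts scaled to a common library total) in clone 1, 576 and 569 in clone 2, and 587 and 597 in WT. Clone 2 lay below clone 1 without overlap, and the clones did not overlap in 54.9% of all tested autosomal genes. The Bcat1 difference was -0.14 ± 0.07 on the log2 scale (SE) and did not pass the test. The adjusted p was 0.241, where adjusted p here and below means edgeR's quasi-likelihood test adjusted by Benjamini-Hochberg over all genes, unless another tool is named. Bcat2, which encodes the mitochondrial form of this transaminase, differed by 0.13 ± 0.11 (adjusted p = 0.462). RNA counts say nothing on an edit after which the transcript is still made.

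The 4 knockout libraries held 11976149 to 12864573 gene counts each, and the WT libraries 13294805 and 13923262. CPM values are counts over the library total, whereas log2 differences also use TMM factors, which shift clone 2 against clone 1 by 0.07. Genes with any count numbered 21878 and 21637 in clone 1, 20604 and 20725 in clone 2, and 20365 and 20687 in WT. The libraries of clone 1 differed more from each other than those of clone 2, with a chi-square per gene of 8.79 against 3.27. The 7 ES cell markers summed to 4872 and 5067 CPM in clone 1 and to 4813 and 4803 CPM in clone 2, and all 7 were detected in every library. The 9 fibroblast and feeder markers summed to 34.9 and 33.2 CPM in clone 1 and 20.8 and 20.4 CPM in clone 2, mostly from Pdgfrb, and Dcn, Lum, Postn and Acta2 were at 0 in all 4 libraries. Markers of primitive endoderm summed to 7.45 to 8.17 CPM in clone 1 and 3.84 to 5.67 CPM in clone 2, and markers of trophoblast to 1.74 to 2.56 CPM and 3.81 to 6.76 CPM. The neural markers, mostly Tubb3, summed to 48.4 and 51.7 CPM in clone 1 and 40.2 and 43.4 CPM in clone 2, and the mesoderm markers to 8.09 and 11.6 CPM and to 4.84 and 5.83 CPM. In bulk RNA, fewer cells of a type and less RNA per cell cannot be told apart, and the part of these cell types in the results below was not tested.

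Between the clones, 2028 of the 14012 autosomal genes were called, which is 14.5%, at an adjusted p under 0.05. Of these, 928 were higher in clone 2 (6.62%) and 1100 were lower (7.85%). The median log2 difference of all autosomal genes was -0.00, and the median size of a called difference was 0.70. Large differences were mostly lower in clone 2: 514 called genes were lower by 1 or more on the log2 scale and 160 were higher by as much, and 141 against 37 passed a size of 2. The split also moved with abundance. Among genes with a mean of 1 to 10 CPM over the 4 libraries, 130 were higher and 469 lower in clone 2, and from 100 CPM upwards 330 were higher and 70 lower. With upper-quartile factors in place of TMM, the split was 696 higher and 1238 lower, with the median of all genes moved by -0.04. The larger side turned without clone 1 replicate 2, at 1658 higher and 1340 lower, with the replicate number as a block (1444 and 1411), and with DESeq2 (663 and 624). The count fell when either library of clone 2 was left out and rose when either library of clone 1 was. Each such fit has a single library in that group and takes its spread from the other groups. These counts therefore cannot show whether the differences depend on a given library, and the cause of the fall and the rise was not tested. The plot of log2 difference against abundance shows the calls of both directions.

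**Figure D1:**
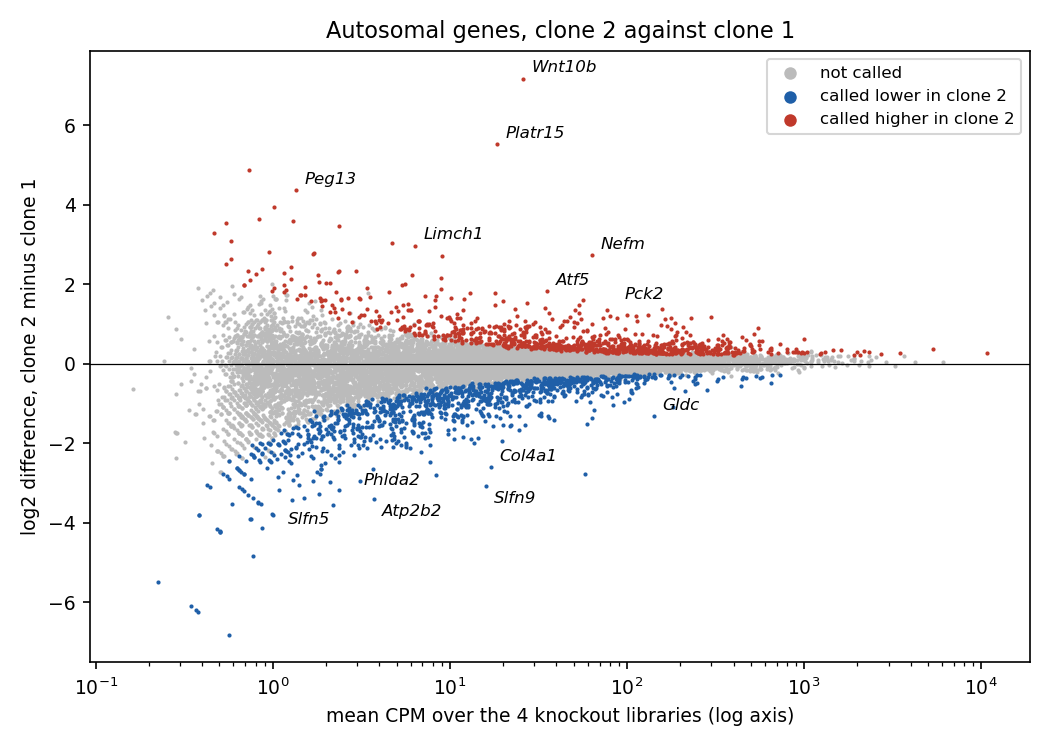
Each point is an autosomal gene, with its mean CPM over the 4 knockout libraries on a log axis and the log2 difference of clone 2 minus clone 1 on the vertical axis. Red and blue points are the 928 genes called higher and the 1100 called lower in clone 2, and Wnt10b stands apart at 7.18.

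The largest difference in favour of clone 2 was that of Wnt10b, a secreted Wnt ligand. It stood at 0.165 and 0.555 CPM in clone 1, at 54.1 and 49.0 CPM in clone 2, and at 0.226 and 0.0718 CPM in WT. Thus clone 2 alone held this RNA at more than trace level, with a log2 difference of 7.18 ± 0.27 (adjusted p = 2.9e-11). Of the 10 genes tested from Cacnb3 to Kmt2d around it on chromosome 15, a window chosen after its values were seen, Kmt2d was also called higher at 0.30 and Prkag1 lower at -0.69. Platr15, a long noncoding RNA, was at 0.908 and 0.713 CPM in clone 1 and 36.9 and 35.4 CPM in clone 2, a difference of 5.54 ± 0.23 (adjusted p = 7.23e-11). Nefm, the medium neurofilament subunit, was at 17.6 and 16.9 CPM in clone 1 and 114 and 106 CPM in clone 2, higher by 2.74 ± 0.13 (adjusted p = 3.59e-10), with WT at 7.37 and 5.17 CPM. The neighbouring family member Nefl was higher by 0.71 ± 0.15. For both neurofilament genes each clone lay above WT, and clone 2 lay above clone 1. Limch1, a LIM and calponin-homology domain protein that binds myosin, was higher by 2.98 ± 0.27, Pdzrn4 by 2.71 ± 0.22, and Hhip, a cell surface inhibitor of Hedgehog ligands, by 3.59 ± 0.59. Gpnmb, a transmembrane glycoprotein, was higher by 3.47 ± 0.56 and the noncoding Ptprtos by 3.05 ± 0.39. Sgcz, a sarcoglycan, was higher by 2.44 ± 0.58, and its call was lost with DESeq2 (adjusted p = 0.0829), without clone 1 replicate 2 (0.0675) and without either library of clone 2 (0.0856 and 0.0983).

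On the lower side, the Schlafen genes of chromosome 11 stood out. Slfn9 was at 30.2 and 26.9 CPM in clone 1 and at 3.26 and 3.19 CPM in clone 2, lower by -3.07 ± 0.19 (adjusted p = 2.77e-08), with WT at 0.903 and 0.646 CPM. Slfn5 was at 4.13 and 4.04 CPM in clone 1 and 0.167 and 0.466 CPM in clone 2, lower by -3.55 ± 0.52 (adjusted p = 0.000213). The order against WT differed between them: WT lay below both clones for Slfn9, but near clone 1 for Slfn5, at 4.14 and 2.08 CPM. Slfn8 beside them was called lower at -3.20 ± 0.82, and Slfn3 at -1.52 ± 0.64 missed the threshold, both looked up after the values were seen. Schlafen proteins include factors that limit translation and viral replication, and as close copies they may share reads. Atp2b2, a plasma membrane calcium pump, was at 6.44 and 7.21 CPM in clone 1, 0.584 and 0.622 CPM in clone 2, and 5.34 and 4.31 CPM in WT. It was lower by -3.41 ± 0.35 (adjusted p = 4.65e-06). Gpld1, a phospholipase that cuts GPI anchors, had 47 counts in clone 1 and 3 in clone 2, a ratio of 15.7 (exact 95% counting interval 5.06 to 79.03), and WT held 0.301 and 0.215 CPM. Maml2, a Notch coactivator (-3.43 ± 0.63), Rhobtb1 (-3.38 ± 0.60), Fer1l4 (-3.27 ± 0.54), Vrtn (-3.18 ± 0.45) and BC051019 (-2.98 ± 0.51) were high in clone 1 relative to WT as well. Prkcb, a protein kinase C isoform, was lower by -3.16 ± 0.65. Fam163b (-3.06 ± 0.60) lost its call without clone 2 replicate 2 (adjusted p = 0.0514), and Ackr4, a scavenger receptor of chemokines (-2.95 ± 0.62), without clone 2 replicate 1 (adjusted p = 0.0506). Without clone 2 replicate 2 the difference of Ackr4 was -4.94.

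Among abundant genes lower in clone 2, Gldc, the glycine decarboxylase that feeds one-carbon metabolism, was at 199 and 213 CPM in clone 1, 80.7 and 76.6 CPM in clone 2, and 180 and 181 CPM in WT. The difference was -1.31 ± 0.08 (adjusted p = 2.88e-08), with clone 2 apart from the other 4 libraries. Sub1, a transcriptional coactivator, was at 243 and 260 CPM in clone 1 and 115 and 110 CPM in clone 2, lower by -1.09 ± 0.09 (adjusted p = 3.79e-07), with WT at 273 and 241 CPM. Mtmr12, a myotubularin-family adaptor, lies near Sub1 on chromosome 15 and was lower by -1.15 ± 0.10. Of the 10 genes tested between 11839896 and 12935291 there (GRCm38), a window chosen after values were seen, 7 were called lower and 0 higher, among them Zfr at -0.50, Golph3 at -0.85 and Drosha, the nuclear enzyme of microRNA maturation, at -0.68. Drosha stood at 273 and 259 CPM in clone 1, 157 and 158 CPM in clone 2, and 278 and 295 CPM in WT. In these genes clone 2 was again the line that departed from WT. Pgm2, a phosphopentomutase, was at 91.4 and 93.0 CPM in clone 1 and 31.6 and 36.6 CPM in clone 2, lower by -1.36 ± 0.11 (adjusted p = 2.75e-07), with WT at 38.1 and 38.3 CPM.

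The gene lists were described by their counts of called members, since no test of a list was made. The lists were chosen with earlier results of these data known, so their shares are a description and not independent support. Of 29 lists with a tested member, 26 had a larger share called than the 14.5% of all autosomal genes. The share was 81.5% for genes of the amino acid response, 66.7% for the 3 tested two-cell-like genes and 62.5% for formative and primed genes. It was 50.0% for Hox genes, Wnt targets, mesoderm and streak genes and the 4 tested fibroblast markers, 45.5% for trophoblast and 44.4% for ectoderm and neural genes. Glycolysis and hypoxia genes followed at 41.9%, core pluripotency genes at 41.7% and germline genes at 41.4%. At the other end, it was 3.33% of genes for Ras family members, regulators and kinases and 3.70% for branched-chain amino acid catabolism. Under a test against a minimum fold of 1.5, 129 of the 205 called genes that are named by rule or listed lost their call, so differences of moderate size rest on the test against no change. The bar chart of the lists shows which ones held calls in a single direction.

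**Figure D2:**
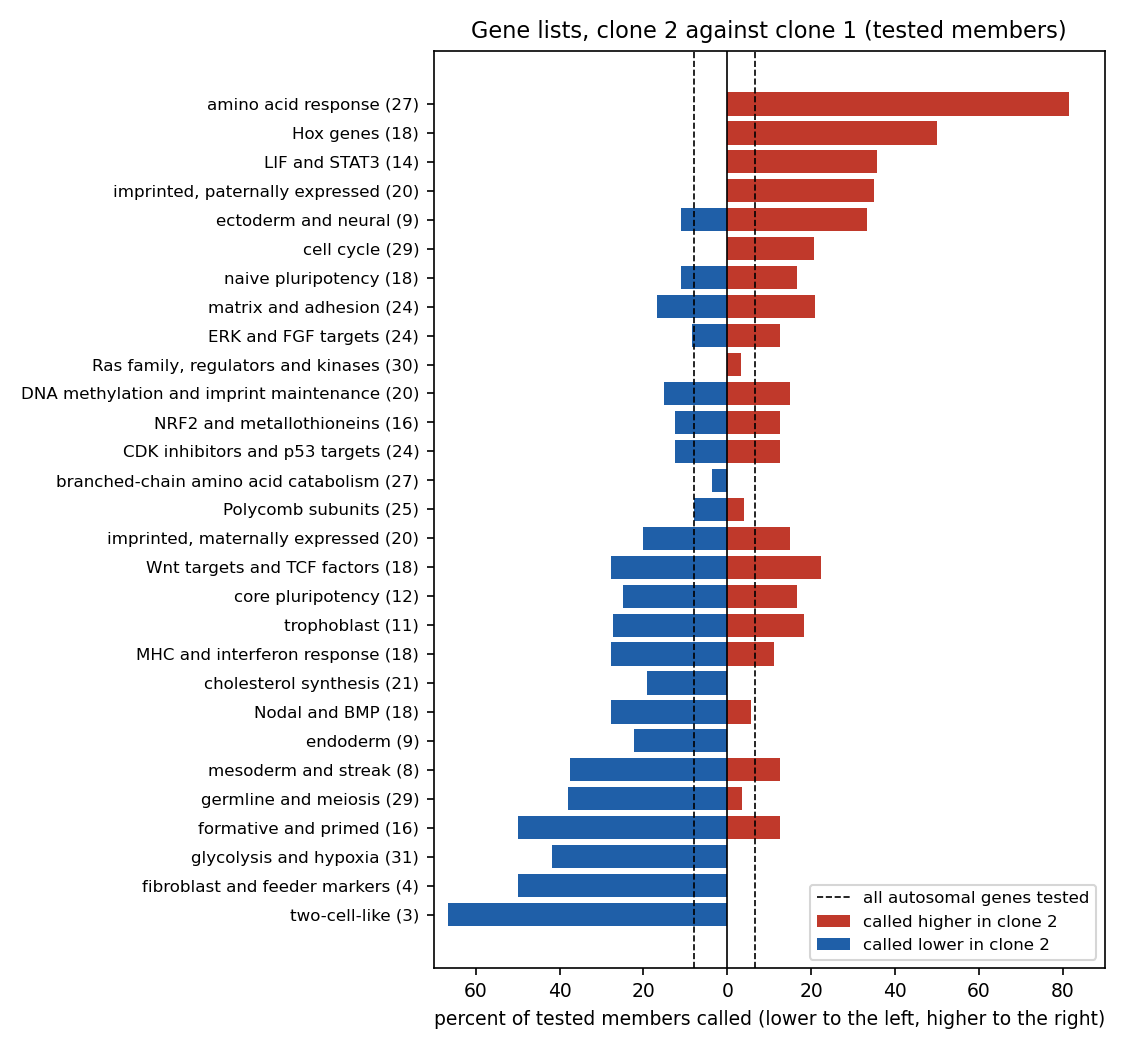
Bars give the percent of tested members of each gene list called higher (red, right) or lower (blue, left) in clone 2, with the number tested in brackets, and dashed lines mark 6.62% and 7.85%, the shares among all autosomal genes. The amino acid response stands out on the right with 22 of 27 members, and glycolysis and hypoxia on the left with 13 of 31.

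Genes of the amino acid response were higher in clone 2, with 22 of 27 tested members called higher, 0 called lower and a median log2 difference of 0.65. The count ranged from 17 to 23 with each library left out in turn. Atf4 itself was at 314 and 317 CPM in clone 1, 444 and 441 CPM in clone 2, and 391 and 403 CPM in WT. It was higher by 0.56 ± 0.07 (adjusted p = 8.2e-05), and WT lay between the clones. Its relative Atf5 showed the same order with a larger step, at 14.4 and 18.0 CPM in clone 1, 51.9 and 57.7 CPM in clone 2, and 25.05 and 27.3 CPM in WT. The difference for Atf5 was 1.83 ± 0.13 (adjusted p = 1.25e-07).

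Among the downstream genes, Pck2, the mitochondrial phosphoenolpyruvate carboxykinase, was at 86.001 and 95.6 CPM in clone 1, 221 and 228 CPM in clone 2, and 191 and 200 CPM in WT. It was higher by 1.38 ± 0.09 (adjusted p = 2.62e-08), and here clone 1 was the line that departed from WT. Chac1, which degrades glutathione, was at 20.1 and 24.2 CPM in clone 1 and 50.9 and 50.5 CPM in clone 2, higher by 1.27 ± 0.13 (adjusted p = 8.02e-06). Trib3, a pseudokinase induced by stress, was at 43.8 and 56.3 CPM in clone 1 and 105 and 114 CPM in clone 2, higher by 1.20 ± 0.11. WT lay between the clones for both, at 31.1 and 39.1 CPM for Chac1 and 74.0 and 80.01 CPM for Trib3. The stress-response regulator Nupr1 was higher by 1.05 ± 0.11 and Gpt2, which transfers the amino group between alanine and glutamate in mitochondria, by 1.01 ± 0.08. For Nupr1 it was clone 1 that differed from WT (-0.95, adjusted p = 8.33e-06), and for Gpt2 clone 2 (0.82, adjusted p = 1.3e-06).

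Serine synthesis was represented by all 3 of its enzymes. Phgdh was higher by 0.65 ± 0.08, Psat1 by 0.89 ± 0.08 and Psph by 0.83 ± 0.11. Psat1 was at 419 and 373 CPM in clone 1, 715 and 679 CPM in clone 2, and 611 and 580 CPM in WT. In one-carbon metabolism Mthfd2 was higher by 0.87 ± 0.08 and Shmt2 by 0.33 ± 0.08, the latter with its call lost without clone 2 replicate 2 (adjusted p = 0.213). The proline pathway genes Aldh18a1 and Pycr1 were higher by 0.70 ± 0.08 and 0.91 ± 0.10, and Cth, which makes cysteine, by 0.47 ± 0.08. Among transporters, the cystine importer Slc7a11 was at 0.825 and 0.792 CPM in clone 1 and 3.34 and 3.03 CPM in clone 2, higher by 2.04 ± 0.41 (adjusted p = 0.00278). Slc7a1, which imports arginine and lysine, was higher by 0.62 ± 0.08 and Slc1a5, a glutamine carrier, by 0.50 ± 0.08. Slc1a4 (0.43), Slc3a2 (0.40) and Slc7a5 (0.32) were called with smaller differences. These calls were lost without clone 2 replicate 2, at an adjusted p of 0.0743, 0.0509 and 0.0873, and those of Slc1a4 and Slc7a5 also without replicate 1 (0.0722 and 0.145). The transcription factor Cebpb was higher by 0.85 ± 0.22, yet both clones lay below WT, at 4.46 and 4.20 CPM in clone 1, 6.60 and 8.24 CPM in clone 2 and 13.9 and 17.5 CPM in WT. Its call was lost with DESeq2 (adjusted p = 0.0544) and without clone 2 replicate 2 (0.170).

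The 5 members that were not called included Asns, the asparagine synthetase and a classical target of Atf4. Asns was at 1014 and 952 CPM in clone 1 and at 1053 and 1049 CPM in clone 2, a difference of 0.17 ± 0.07 (adjusted p = 0.135). Atf3 differed by 0.08 ± 0.26, Sesn2 by 0.22 ± 0.09, Vldlr by 0.40 ± 0.18 and Ddit4 by -0.25 ± 0.10. Against WT, which both contrasts share, 15 of the 27 members were lower and 1 higher in clone 1, with a median of -0.41, and 16 were higher and 2 lower in clone 2, with a median of 0.35. Of all autosomal genes, 9.63% were called lower and 12.4% higher in clone 1 against WT, and 9.99% higher and 7.91% lower in clone 2.

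Promoters of these genes are shown because Atf4 with its C/EBP partners binds a composite element, searched for here as TGATGNAA on both strands. RefSeq promoter entries (GRCm38.p6) were found for 24 of the 27 tested members, and the search covered the 250 bases before each start. Among them, 8 members (33.3%) held the motif in at least 1 entry, against 2.41% of the 10038 tested autosomal genes with an entry. By entry rather than gene the share was 2.02%. The members were listed as known targets of this pathway, so this share is a description of the list. The 8 were Chac1, Pck2, Pycr1, Nupr1 and Slc7a11, all called higher in clone 2, and Asns, Atf3 and Vldlr, which were not called. Windows are chr2:119350992-119351241 (plus strand) for Chac1, chr14:55540016-55540265 (plus strand) for Pck2, chr11:120643749-120643998 (minus strand) for Pycr1, chr7:126625471-126625720 (minus strand) for Nupr1, chr3:50443614-50443863 (minus strand) for Slc7a11 and chr6:7693210-7693459 (minus strand) for Asns. Each run reads 5′ to 3′ towards the start of the gene, and capitals mark the match on either strand:
Chac1: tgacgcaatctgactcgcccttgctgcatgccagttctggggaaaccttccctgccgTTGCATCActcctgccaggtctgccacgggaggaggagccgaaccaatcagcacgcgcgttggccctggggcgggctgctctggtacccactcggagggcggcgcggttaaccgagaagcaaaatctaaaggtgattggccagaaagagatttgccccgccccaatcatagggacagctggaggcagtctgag
Pck2: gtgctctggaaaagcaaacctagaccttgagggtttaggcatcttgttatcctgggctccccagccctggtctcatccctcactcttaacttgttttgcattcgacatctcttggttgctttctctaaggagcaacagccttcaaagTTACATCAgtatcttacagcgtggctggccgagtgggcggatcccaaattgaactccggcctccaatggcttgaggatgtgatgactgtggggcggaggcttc
Pycr1: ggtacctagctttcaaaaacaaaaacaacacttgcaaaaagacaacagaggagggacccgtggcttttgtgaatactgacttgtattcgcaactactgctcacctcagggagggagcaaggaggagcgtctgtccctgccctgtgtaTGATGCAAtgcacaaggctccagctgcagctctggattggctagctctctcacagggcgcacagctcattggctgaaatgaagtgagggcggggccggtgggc
Nupr1: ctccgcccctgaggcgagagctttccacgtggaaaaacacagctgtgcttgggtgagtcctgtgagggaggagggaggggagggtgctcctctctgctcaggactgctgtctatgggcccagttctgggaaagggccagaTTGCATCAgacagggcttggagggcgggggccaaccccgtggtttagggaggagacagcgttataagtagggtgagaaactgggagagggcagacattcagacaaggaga
Slc7a11: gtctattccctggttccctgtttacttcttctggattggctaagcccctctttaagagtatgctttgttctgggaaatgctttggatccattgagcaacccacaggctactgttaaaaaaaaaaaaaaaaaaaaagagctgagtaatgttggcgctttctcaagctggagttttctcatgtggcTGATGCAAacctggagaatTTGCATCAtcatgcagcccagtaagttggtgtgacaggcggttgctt
Asns: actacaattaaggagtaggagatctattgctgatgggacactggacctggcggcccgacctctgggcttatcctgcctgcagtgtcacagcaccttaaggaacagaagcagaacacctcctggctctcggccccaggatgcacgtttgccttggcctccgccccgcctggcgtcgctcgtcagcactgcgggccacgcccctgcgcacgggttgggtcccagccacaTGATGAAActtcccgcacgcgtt
The match begins 193 bases before the start in Chac1, 103 in Pck2 and in Pycr1, 110 in Nupr1 and 23 in Asns. Slc7a11 holds 2 matches, at 66 and 47 bases. A match is not evidence of binding, and the gene with the match nearest its start, Asns, was not called between the clones.

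**Figure D3:**
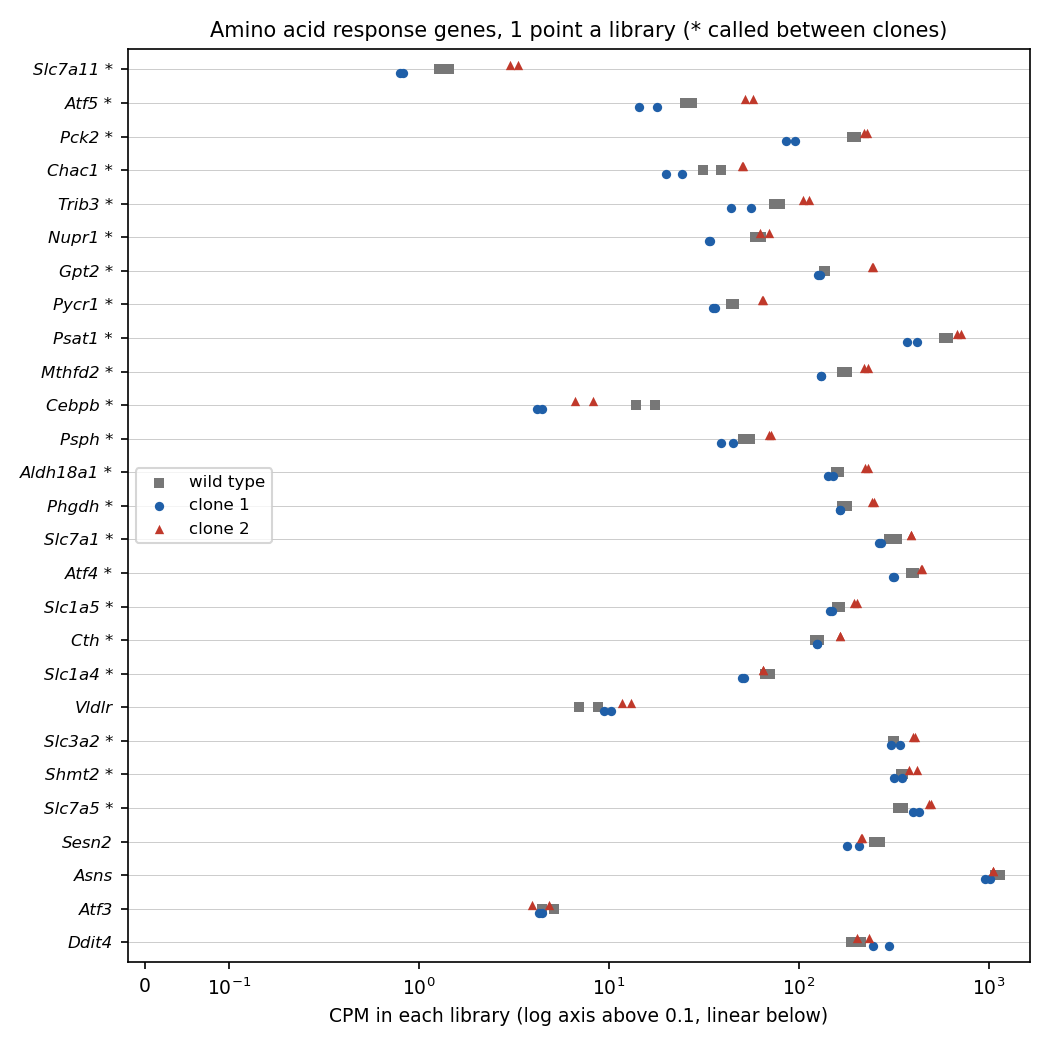
CPM of the 27 tested amino acid response genes in each library, on an axis that is logarithmic above 0.1, for WT (grey squares), clone 1 (blue circles) and clone 2 (red triangles). Stars mark the 22 genes called between the clones, all with clone 2 to the right of clone 1, and WT often lies between them.

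Genes of glycolysis and the hypoxia response were lower in clone 2, with 13 of 31 tested members called lower, 0 higher and a median of -0.27. Of the 13, 0 passed against a minimum fold of 1.5. The count was 6 without clone 2 replicate 1 and 7 without clone 2 replicate 2. The largest difference of the list was that of Adm, the vasodilator peptide adrenomedullin, at 5.03 and 4.52 CPM in clone 1, 1.59 and 1.24 CPM in clone 2, and 0.677 and 1.65 CPM in WT. It was lower by -1.68 ± 0.38 (adjusted p = 0.00691), a call lost without clone 2 replicate 2 (0.0617). P4ha2, a collagen prolyl hydroxylase subunit induced by hypoxia, was at 48.4 and 40.5 CPM in clone 1, 22.5 and 25.3 CPM in clone 2, and 25.9 and 25.4 CPM in WT. It was lower by -0.82 ± 0.13 (adjusted p = 0.00031), with clone 2 near WT. Pdk1, the kinase that switches off pyruvate dehydrogenase, was at 150 and 132 CPM in clone 1 and 92.9 and 87.0 CPM in clone 2, lower by -0.58 ± 0.09 (adjusted p = 0.000373). Egln1, the oxygen sensor that marks HIF-1 alpha for degradation, was lower by -0.70 ± 0.12 and Ndrg1 by -0.75 ± 0.13. The glucose transporter Slc2a1 (-0.19 ± 0.08), Hk2 (0.06 ± 0.08) and Ldha (-0.08 ± 0.07) did not pass the test. Against WT, 13 of the 31 members were called higher and 1 lower in clone 1, with a median of 0.19. In clone 2 it was 4 higher and 4 lower, with a median of -0.12. Of all autosomal genes, 12.4% were called higher and 9.63% lower in clone 1 against WT, and 9.99% and 7.91% in clone 2. The core hypoxia element letters ACGTG were searched on both strands in the same promoter windows as above. They occurred in 15 of 29 members with an entry (51.7%) and in 24.9% of all tested autosomal genes with one. The members were listed as genes of glycolysis and the hypoxia response, so this share is a description of the list. In cholesterol synthesis 4 of 21 members were called lower and 0 higher (median -0.12). Dhcr7, the last enzyme of the pathway, led at -0.81 ± 0.11, with 59.8 and 54.6 CPM in clone 1, 31.1 and 30.8 CPM in clone 2, and 29.0 and 32.2 CPM in WT. Insig1 and Msmo1 lost their calls when either library of clone 2 was left out, at 0.0535 to 0.226.

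Germline and meiosis genes were lower in clone 2, with 11 of 29 tested members called lower, Kit called higher and a median of -0.53. Many such genes have CpG-rich promoters that are methylated and silent in somatic cells. Smc1b, the meiotic cohesin subunit, was at 37.4 and 26.2 CPM in clone 1, 7.68 and 8.01 CPM in clone 2, and 4.06 and 4.02 CPM in WT. It was lower by -1.94 ± 0.18 (adjusted p = 2.11e-06), and both clones lay above WT. Sohlh2, a transcription factor of early germ cells, was at 32.3 and 33.8 CPM in clone 1 and 10.9 and 10.2 CPM in clone 2, lower by -1.58 ± 0.16 (adjusted p = 4.65e-06), with WT at 0.226 and 0.575 CPM. Stra8, the gene that starts meiosis, was at 22.0 and 19.7 CPM in clone 1 and 5.18 and 5.52 CPM in clone 2, lower by -1.89 ± 0.19 (adjusted p = 5.12e-06). For Stra8 the WT libraries, at 5.57 and 7.61 CPM, lay beside clone 2. The same arrangement held for Ddx4, the germ cell RNA helicase (-1.39 ± 0.24), and Tex101 (-1.95 ± 0.35), whereas Piwil2, an Argonaute-family protein of piRNAs (-1.13 ± 0.20), was lower than WT in clone 2 and near WT in clone 1. Mov10l1 (-1.05 ± 0.22), Mael (-1.97 ± 0.40), Stag3 (-0.62 ± 0.13) and the testis tubulin Tuba3a (-0.73 ± 0.10), whose close copies may share reads, were also called lower. Without clone 1 replicate 1 the difference of Stag3 was -0.37. Brdt (-2.25 ± 0.50) lost its call without clone 2 replicate 2 (adjusted p = 0.0539). Kit, the stem cell factor receptor, was at 321 and 277 CPM in clone 1 and 446 and 432 CPM in clone 2, higher by 0.63 ± 0.09. When clone 1 was compared with WT, 20 of these 29 genes passed as higher and 1 as lower. For clone 2 the same comparison gave 13 and 2. Among all autosomal genes, such higher calls made up 12.4% (clone 1) and 9.99% (clone 2), and lower calls 9.63% and 7.91%.

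Imprinted genes, which are expressed from the copy of 1 parent, differed between the clones in both directions. Of 20 tested paternally expressed genes 7 were called higher in clone 2 and 0 lower (median 0.18), and of 20 maternally expressed genes 3 were higher and 4 lower (median 0.14). Peg10, derived from a retrotransposon, was at 28.6 and 30.3 CPM in clone 1, 80.7 and 74.5 CPM in clone 2, and 42.9 and 44.8 CPM in WT. It was higher by 1.47 ± 0.11 (adjusted p = 1.2e-07), with WT between the clones. Peg3, a zinc-finger protein, was at 31.7 and 27.1 CPM in clone 1 and 78.0 and 65.7 CPM in clone 2, higher by 1.36 ± 0.12 (adjusted p = 9.79e-07). The noncoding Peg13 had 3 counts in clone 1 and 64 in clone 2, a ratio of 21.2 (counting interval 6.95 to 106). Plagl1 (0.71 ± 0.08), Sfmbt2 (0.81 ± 0.13) and Snrpn (0.77 ± 0.16) were higher as well. Among maternally expressed RNAs, Mirg, a microRNA host of the Dlk1 and Meg3 domain, was higher by 0.93 ± 0.12. Rian of the same domain was higher by 1.07 ± 0.32, a call lost with DESeq2 (adjusted p = 0.138), without clone 1 replicate 1 (0.0778) and without clone 2 replicate 1 (0.265). Meg3 itself, at 0.743 to 1.51 CPM in the 4 libraries, differed by 0.17 ± 0.52 and did not pass the test.

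The 4 maternally expressed genes lower in clone 2, Phlda2, Slc22a18, Osbpl5 and Ascl2, all lie in the Kcnq1 domain of chromosome 7. Phlda2, which restrains placental growth, was at 14.03 and 15.5 CPM in clone 1, 2.17 and 1.87 CPM in clone 2, and 4.21 and 4.96 CPM in WT. It was lower by -2.79 ± 0.24 (adjusted p = 6.45e-07), with clone 1 above WT and clone 2 below it. Slc22a18 was at 4.95 and 6.18 CPM in clone 1 and 0.334 and 1.01 CPM in clone 2, lower by -2.94 ± 0.44 (adjusted p = 0.00023), and Osbpl5 was lower by -2.47 ± 0.44. Ascl2, a transcription factor of the trophoblast, was at 16.6 and 18.0 CPM in clone 1 and 5.68 and 6.61 CPM in clone 2, lower by -1.42 ± 0.18. For Slc22a18, Osbpl5 and Ascl2 the WT libraries lay near clone 2, at 0.301 and 0.359 CPM for Slc22a18 and 4.89 and 5.24 CPM for Ascl2. Kcnq1ot1, the paternally expressed noncoding RNA that silences this domain in cis, was at 36.5 and 34.6 CPM in clone 1, 46.3 and 45.1 CPM in clone 2, and 51.1 and 45.2 CPM in WT. It was higher by 0.43 ± 0.11 (adjusted p = 0.0136), a call lost without either library of clone 2 (0.121 and 0.0825). Cdkn1c, a CDK inhibitor of the same domain, was under 1 CPM in every library and differed by -2.72 ± 0.90 (adjusted p = 0.0546). Of the 15 genes tested from Ascl2 to Osbpl5, 7 were called lower and 2 higher, and Cd81 (0.03 ± 0.09) and Nap1l4 (-0.01 ± 0.08) were not called.

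Hox genes, which pattern the body axis and are held silent by Polycomb in ES cells, were higher in clone 2. The count was 9 of 18 tested members higher and 0 lower, with a median of 1.07. All levels were low. Hoxc8 was at 1.40 and 0.634 CPM in clone 1, 4.51 and 5.29 CPM in clone 2, and 0.301 and 0.718 CPM in WT, higher by 2.34 ± 0.42 (adjusted p = 0.00113). Hoxc11 was at 1.82 and 1.66 CPM in clone 1, 5.18 and 5.52 CPM in clone 2, and 0.602 and 0.359 CPM in WT, higher by 1.69 ± 0.33 (adjusted p = 0.00217). Clone 2 lay above the other libraries for both genes. Against WT, clone 1 was higher too, with 5 of the 18 members called higher, 0 lower and a median of 0.65. In clone 2 it was 12 higher and 0 lower, with a median of 1.48. Of all autosomal genes, 12.4% were called higher in clone 1 against WT and 9.99% in clone 2. Of the 9 genes tested from Hoxc13 to Hoxc4 on chromosome 15, 7 were called higher, and Hoxc13 (0.42 ± 0.15) and Hoxc4 (0.52 ± 0.22) were not. Thus 7 of the 9 calls of the list lie in this 1 cluster. The entry of Hoxc5 spans Hoxc9, Hoxc8 and Hoxc6 and overlaps Hoxc10, so the reads of these genes may not be separate. The calls of Hoxc8, Hoxc9 (1.66 ± 0.34) and Hoxc11 held under every alternative run. Without clone 2 replicate 1 the calls of Hoxc5 (adjusted p = 0.218), Hoxc6 (0.0708), Hoxc10 (0.119) and Hoxa7 (0.178) were lost, and the count over the list was 4. Without clone 2 replicate 2 the count was 5, with the call of Hoxc12 lost at 0.216, and with DESeq2 it was 5 as well. Hoxc5 and Hoxc10 lost theirs under both of these too, and Hoxa7 with DESeq2. Further calls were lost for Hoxc5 without clone 1 replicate 2 (0.0599), and for Hoxc10 (0.176) and Hoxa7 (0.121) without clone 1 replicate 1. Hoxa10 lost its call with any of the 6 libraries left out, at 0.0576 to 0.296. Polycomb subunits themselves gave 1 higher and 2 lower of 25 tested, with 1 call left without any single library of clone 2 or WT and 8 without clone 1 replicate 2. In the main fit, the share of Polycomb subunits called was below the 14.5% of all autosomal genes. The best supported of these subunits was Pcgf5, a subunit of a variant PRC1, lower by -0.99 ± 0.19. It was at 17.4 and 14.6 CPM in clone 1 and 8.85 and 6.45 CPM in clone 2.

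**Figure D4:**
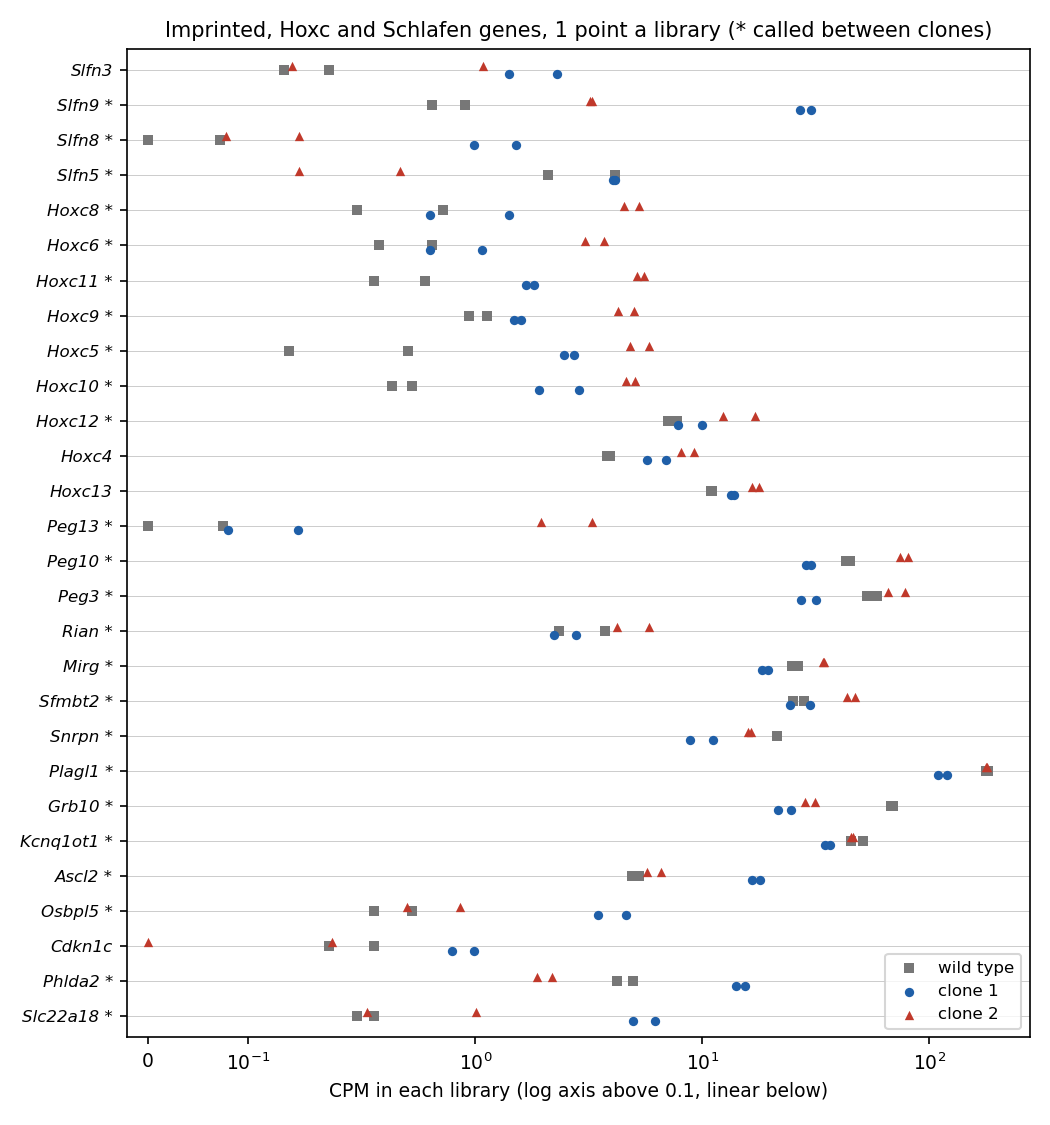
CPM in each library, on an axis that is logarithmic above 0.1, for the called imprinted genes with Cdkn1c (bottom), the genes of the Hoxc cluster (middle) and the Schlafen genes (top), with grey squares for WT, blue circles for clone 1 and red triangles for clone 2. Stars mark genes called between the clones, and the Kcnq1 domain genes Phlda2 and Slc22a18 show clone 1 far to the right.

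Of 12 core pluripotency genes 2 were called higher and 3 lower, and of 18 naive genes 3 were higher and 2 lower. Without clone 2 replicate 1 these counts fell to 2 core and 3 naive genes, and without replicate 2 of that clone to 3 of each. The core count was also 3 without clone 1 replicate 1 and without either WT library, and the naive count was 8 without clone 1 replicate 1. The factors Pou5f1 (0.13 ± 0.12), Nanog (-0.09 ± 0.08) and Sox2 (0.04 ± 0.08) did not pass the test. Utf1, a chromatin-bound factor of undifferentiated cells, was at 90.4 and 139 CPM in clone 1, 47.4 and 58.1 CPM in clone 2, and 186 and 187 CPM in WT. It was lower by -1.04 ± 0.15 (adjusted p = 0.000162), with both clones below WT and clone 2 the lower, and by -0.69 without clone 1 replicate 2. Dppa3, which protects imprints in the early embryo, was at 1.07 and 0.555 CPM in clone 1 and 3.09 and 4.66 CPM in clone 2, higher by 2.32 ± 0.43 (adjusted p = 0.00154). Klf5 was higher by 0.51 ± 0.10 and Sall1 by 0.53 ± 0.08, while Klf4 (0.37 ± 0.09) lost its call without either library of clone 2 (0.0602 and 0.132) and was at 0.23 without clone 1 replicate 1. Of 16 formative and primed genes 8 were called lower and 2 higher (median -0.63), but the count fell to 2 without clone 2 replicate 1, to 5 without replicate 2, to 4 with only the 4 knockout libraries, to 4 without either WT library, and to 3 with DESeq2. The call of Zic2 (-0.68 ± 0.15) held in each of these, with 25.4 and 33.4 CPM in clone 1, 17.5 and 17.4 CPM in clone 2, and 16.2 and 14.7 CPM in WT.

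Among DNA methylation genes, the de novo methyltransferase Dnmt3a and its partner Dnmt3l were each lower in clone 2 by -0.97, with SEs of 0.11 and 0.08. Dnmt3a was at 86.1 and 80.4 CPM in clone 1, 41.7 and 39.2 CPM in clone 2, and 35.4 and 42.2 CPM in WT (adjusted p = 1.63e-05). Dnmt3l was at 132 and 129 CPM in clone 1, 64.0 and 62.4 CPM in clone 2, and 149 and 150 CPM in WT (adjusted p = 9.64e-07). The position of WT thus differed, beside clone 2 for Dnmt3a and nearer clone 1 for Dnmt3l. Of the 20 members tested, 3 were called higher and 3 lower, and without clone 2 replicate 1 it was 1 higher and 2 lower. Trim28, the corepressor that holds imprints, was higher by 0.29 ± 0.07, a call lost without either library of clone 2 (0.124 and 0.107).

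Signalling lists gave calls in both directions. Of 24 ERK and FGF targets 3 were higher and 2 lower, led by the ETS factor Etv1 at 4.70 and 3.804 CPM in clone 1, 11.9 and 12.6 CPM in clone 2, and 18.95 and 19.2 CPM in WT. Etv1 was higher by 1.60 ± 0.19 (adjusted p = 2.75e-05), with both clones below WT. Cyclin D1 (Ccnd1) was also higher, by 0.49 ± 0.08. The count of this list was 3 without clone 2 replicate 1 and 9 without clone 1 replicate 2. Of 30 Ras family members, regulators and kinases 1 was called, Mras at 0.35 ± 0.10, which lost its call with DESeq2 (adjusted p = 0.0621), with upper-quartile factors (0.0531), without WT replicate 2 (0.0504) and without either library of clone 2 (0.247 and 0.103). Hras (0.22 ± 0.11) was not called. In the BCAA catabolism list, which holds Bcat1 and Bcat2, 1 of 27 was called, Oxct1 at -0.29 ± 0.09, and this call was lost in 8 alternatives besides the minimum fold, DESeq2 among them (adjusted p = 0.098).

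In the LIF and STAT3 list 5 of 14 were higher and 0 lower (median 0.21), but the count was 1 without clone 2 replicate 1 and 2 without replicate 2. Its largest difference was Pim1, a kinase induced by STAT3, at 46.7 and 78.4 CPM in clone 1, 130 and 147 CPM in clone 2, and 148 and 152 CPM in WT (1.22 ± 0.16). Pim1 lies in the chromosome 17 stretch described below. Among 18 Wnt targets and TCF factors 4 were higher and 5 lower, a count of 9 that fell to 5 without clone 2 replicate 1 and to 4 without replicate 2. The calls of Ccnd1 and Tcf7l2 held in all alternatives but the minimum fold. Tcf7l2 was at 7.59 and 9.51 CPM in clone 1, 14.4 and 14.8 CPM in clone 2, and 14.3 and 16.0 CPM in WT (0.84 ± 0.17, adjusted p = 0.00331). Sp5 was higher by 0.63 (adjusted p = 0.0113), a call lost with DESeq2 (0.186). The Wnt feedback inhibitors Nkd1 (-1.46 ± 0.31) and Nkd2 (-1.82 ± 0.47) were lower in clone 2. A link of any of these genes to Wnt10b was not tested. Nkd1 lost its call without clone 2 replicate 2 (0.0602), and Nkd2 without clone 2 replicate 1 (0.158), without clone 1 replicate 1 (0.0510) and with DESeq2 (0.0877). Of 18 Nodal and BMP genes 1 was higher and 5 were lower, with 2 calls left without clone 2 replicate 1 and 3 without replicate 2. Fst, an inhibitor of activin, was at 9.82 and 10.1 CPM in clone 1, 24.9 and 27.5 CPM in clone 2, and 23.2 and 21.8 CPM in WT, higher by 1.47 ± 0.14 (adjusted p = 3.19e-06). Bmp7 was at 28.8 and 30.9 CPM in clone 1, 11.6 and 13.1 CPM in clone 2, and 22.8 and 25.4 CPM in WT, lower by -1.20 ± 0.14 (adjusted p = 2.07e-05). For Fst clone 1 stood apart from WT, and for Bmp7 clone 2 did.

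Matrix genes differed in both directions, with 5 of 24 higher and 4 lower. Col4a1 and Col4a2, the chains of the main collagen IV of basement membranes, start 21 bases apart on opposite strands of chromosome 8. Col4a1 was at 28.2 and 30.6 CPM in clone 1, 3.84 and 5.29 CPM in clone 2, and 4.74 and 5.17 CPM in WT, lower by -2.61 ± 0.18 (adjusted p = 9.91e-08). Col4a2 was at 12.1 and 18.7 CPM in clone 1 and 4.26 and 4.28 CPM in clone 2, lower by -1.78 ± 0.26. Clone 1 was the high line for both, and for the laminin chain Lamb1 (-0.75 ± 0.12). The partner chains Lama1 (0.72 ± 0.08) and Lamc1 (0.37 ± 0.07) and the linker Nid1 (0.47 ± 0.08) were higher in clone 2. Lama1 was at 287 and 258 CPM in clone 1, 433 and 421 CPM in clone 2, and 291 and 312 CPM in WT. Lama5, higher by 0.30 ± 0.08, lost its call without either library of clone 2 (0.136 and 0.145).

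Cell cycle genes had 6 of 29 members called higher and 0 lower, with a median of 0.06, but the count was 1 without either library of clone 2 and 3 with upper-quartile factors. Only Ccnd1 held its call in all alternatives but the minimum fold. Of 24 CDK inhibitors and p53 targets 3 were higher and 3 lower, and 8 and 3 without clone 1 replicate 2. Cdkn1a, the p21 inhibitor, was at 110 and 129 CPM in clone 1, 215 and 223 CPM in clone 2, and 171 and 187 CPM in WT, higher by 0.94 ± 0.09 (adjusted p = 3.26e-06), and it lies in the chromosome 17 stretch. Gdf15, a stress-induced cytokine, was higher by 0.92 ± 0.15, and Pmaip1, the apoptosis gene known as Noxa, was lower by -1.31 ± 0.19. Thus p53-linked genes did not move in a single direction. In the MHC and interferon list 2 of 18 were higher and 5 lower. This was 1 higher and 2 lower without clone 2 replicate 1 and with DESeq2, and 1 higher and 3 lower without clone 2 replicate 2 or either WT library. The calls lost without clone 2 replicate 1 were those of Nlrc5 (adjusted p = 0.106), Psmb9 (0.36), Stat2 (0.127) and Ifitm3 (0.0561). B2m, the light chain of MHC class I, was at 18.6 and 15.8 CPM in clone 1 and 5.18 and 7.77 CPM in clone 2, lower by -1.33 ± 0.20 (adjusted p = 0.000309), and the peptide transporter Tap1 was lower by -1.51 ± 0.23. Ifitm1 was higher by 0.75 ± 0.10.

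Lineage markers gave calls in both directions. Among tested members, 2 of 11 trophoblast genes were higher and 3 lower, 0 of 9 endoderm genes were higher and 2 lower, 1 of 8 mesoderm and streak genes was higher and 3 lower, and 3 of 9 ectoderm and neural genes were higher and 1 lower. Without clone 2 replicate 1 the calls numbered 3, 1, 2 and 2 in that order, and mesoderm and streak genes also had 2 without clone 2 replicate 2. The most abundant was Apoe, the lipid carrier apolipoprotein E, at 647 and 914 CPM in clone 1, 500.4 and 557 CPM in clone 2, and 713 and 786 CPM in WT. Apoe was lower by -0.49 ± 0.12 (adjusted p = 0.0106), a call lost with DESeq2 (0.189) and without clone 2 replicate 1 (0.134). Cdx2, the factor of the trophectoderm, was at 2.39 and 1.51 CPM in clone 1, 6.26 and 3.42 CPM in clone 2, and 28.1 and 21.7 CPM in WT, higher by 1.38 ± 0.33 (adjusted p = 0.00893), a call lost without clone 2 replicate 1 (0.89, adjusted p = 0.166). Hnf4a, a factor of endoderm and liver, was at 5.78 and 5.31 CPM in clone 1 and 1.75 and 1.71 CPM in clone 2, lower by -1.60 ± 0.26 (adjusted p = 0.000583). Eomes, used by trophoblast and mesendoderm, was lower by -0.85 ± 0.17, with WT beside clone 2. The NRF2 list had 2 higher and 2 lower of 16, Gstm1 at 0.52 ± 0.10 and Slc7a11, given above, being the higher ones, and without clone 2 replicate 1 the lower calls were lost. Of 3 tested genes of the two-cell-like state 2 were lower, Gm8300 and Zscan4d, both near the detection limit. Neither call held without clone 2 replicate 1 (0.0622 and 0.23), 0 were called with DESeq2, and 1 was left without WT replicate 1, clone 1 replicate 1 or clone 2 replicate 2. None of the protocadherin beta cluster passed the filter.

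The largest group of neighbouring genes that differed together lay on chromosome 17, between 29032628 and 33890661 (GRCm38), from Srsf3 to Kifc1. It was found from these same log2 differences, by a running median over 15 neighbouring genes of mean CPM of 5 or more, so its values are a description. Within it 74 autosomal genes were tested, of which 53 were called higher in clone 2 and 0 lower, and 72 had a log2 difference above 0. The median was 0.87 over these 74, and 0.92 over the 55 genes of the run. Against WT, the median of the stretch was -0.88 in clone 1 and 0.01 in clone 2. Rrp1b, a nucleolar protein, was at 109 and 104 CPM in clone 1, 223 and 219 CPM in clone 2, and 196 and 208 CPM in WT (1.13 ± 0.08). The splicing factor Hnrnpm was at 408 and 398 CPM in clone 1, 675 and 619 CPM in clone 2, and 659 and 640 CPM in WT (0.76 ± 0.08). In both of these genes the clone 1 libraries stood apart from clone 2 and WT. Rps28, a small ribosomal protein, was higher by 1.17 ± 0.25, but its libraries were spread, at 123 and 258 CPM in clone 1 and 298 and 517 CPM in clone 2, and its call was lost with DESeq2 (adjusted p = 0.192) and without clone 2 replicate 2 (0.0502). With a library left out its difference ranged from 0.72 to 1.81. Srsf3 (0.37 ± 0.08) lost its call without clone 2 replicate 1 (0.0959). Stk38, a kinase gene just before the stretch, was higher by 1.16 ± 0.08. The rest of chromosome 17 had 56 higher and 42 lower of 642, a median of 0.04, and the other autosomes had a median between -0.05 and 0.04. Without the stretch, 1975 autosomal genes were called between the clones, 875 higher and 1100 lower. The copy number of these clones was not measured here.

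**Figure D5:**
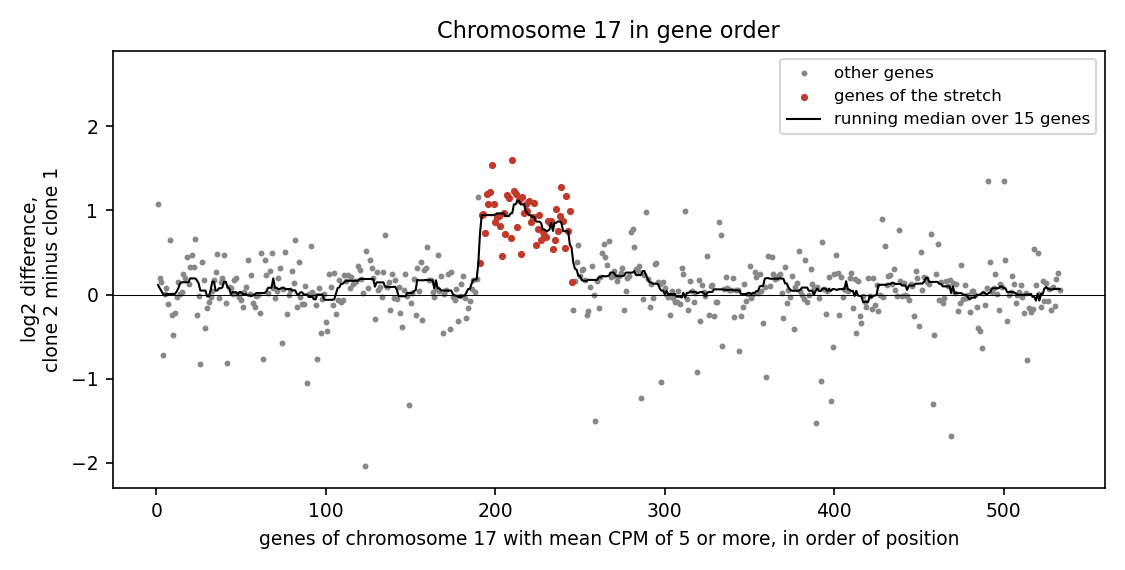
Log2 difference of clone 2 minus clone 1 for genes of chromosome 17 with a mean of 5 CPM or more, in order of position, with the genes of the stretch in red and a running median over 15 genes as a line. The line rises to near 1 in the stretch and stays well below that elsewhere.

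Few genes were on in a single clone. With 1 CPM or more in both libraries of a clone and under 0.1 CPM in both of the other, 1 autosomal gene was on in clone 2 and 3 were on in clone 1, of 43832 in the files (0.00228% and 0.00684%). Opalin, a myelin membrane protein, had 35 counts in clone 2 and 1 in clone 1, a ratio of 34.9 (counting interval 5.86 to 1415). Tdrd5, a Tudor-domain protein of spermatogenesis, had 41 counts in clone 1 and 2 in clone 2, a ratio of 20.6 (5.35 to 176). Plau, the urokinase-type plasminogen activator, had 27 and 2, a ratio of 13.6 (3.41 to 118). The fourth was Gm8300, a gene of the two-cell-like list, with 37 and 1. The genes were chosen by these same counts, so large ratios follow from the rule. These intervals cover counting error only and do not allow for that choice, so they are a description. The intervals of Gpld1 and Peg13 above have the same limit, as both genes were chosen by the size of their difference. The sets of genes on in 1 clone changed with each cut-off tried.

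Promoters of called genes were also compared for CpG content, over the 7984 tested autosomal genes with 1 RefSeq promoter entry (300 bases, from 250 before the start). The median ratio of observed to expected CpG was 0.772 over all of them, 0.776 for genes called higher and 0.715 for genes called lower. It was 0.493 for the 79 genes called higher by 1 or more on the log2 scale and 0.615 for the 308 called lower by as much. A ratio under 0.4 was found in 38.0% of the former, 28.6% of the latter and 13.6% of all. Both sets of large differences thus held a larger share of CpG-poor starts than all genes, a count that was not tested and is not matched for abundance.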

How the data were processed

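RNA was sequenced from 2 libraries each of WT, clone 1 and clone 2. The authors deposited counts, whole numbers of reads per gene that were not normalised. Per the submitters' processing notes the tools were HTSeq 0.9.1, HISAT2 2.1.0 and DESeq2 1.18.1, with mm10 as the build and no roles stated. The sources used here give neither annotation nor strand setting, so antisense and overlapping genes cannot be separated. The HTSeq summary entries were removed. Of all reads, ambiguous ones made up 6.96% to 9.10% and those with several alignments 15.6% to 16.6%. Gene totals ran from 11976149 to 13923262 per library.

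Of 26926 genes with a count, 14946 passed filterByExpr. All 6 libraries were fitted as 3 groups with edgeR 4.0.16 (TMM, quasi-likelihood F test, two-sided) in R 4.3.3, and p-values were adjusted by Benjamini-Hochberg over all 14946 genes at 0.05. WT entered the clone contrast through the spread, the filter on low counts and the TMM factors, and so also through the number of genes adjusted over. Positions came from GENCODE M21 on GRCm38, and genes without a single autosomal position (934 of the fit) were left out of the counts. The members and lists were chosen with earlier results of these data known. Named genes were Bcat1 and Bcat2, the 12 largest called differences in each direction at a mean of 1 CPM or more with no overlap, the 6 most abundant past a size of 1, per list the 3 called members of smallest p, genes on in 1 clone, and 3 in the stretch. Some genes that the rule or the lists took are not reported here by name. Predicted genes, pseudogenes and small RNAs were passed over. Other list members and neighbours named in the text were chosen after their values were seen. The fit was tested on simulated counts over 14579 genes for this contrast. It recovered 49.3% of genes planted at 0.585, 71.0% at 1 and 82.8% at 2. Of its calls 6.90% were false, above the 0.05 set. Changes were planted in fewer genes than were called in the data, so these rates need not hold there. Alternatives were DESeq2 1.42.0, other size factors and filters, other sets of libraries or genes, a replicate block, a minimum fold of 1.5, and each library left out. Figures used matplotlib 3.10.9.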

Additional observations from a re-analysis of the deposited data

Results flagged for a closer look

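Of the 2028 called autosomal genes, 57 (2.81%) were also called against WT in opposite directions in the clones, so that WT lay between them, 28 of them higher in clone 2 and 29 lower. The amino acid response list held 7 of the 57 (Atf5, Mthfd2, Trib3, Chac1, Pycr1, Slc7a1 and Psph), of 22 members called between the clones. The list of paternally expressed genes held 2 (Peg10 and Peg3), of 7, and that of maternally expressed genes held 2 (Phlda2 and Mirg), of 7. The 11 that the naming rule took are given here with values. Both contrasts use the same WT libraries, and the difference between the clones was itself tested. Those higher in clone 2, by log2 difference between the clones, were Platr15 at 5.54 (-1.08 in clone 1 and 4.46 in clone 2 against WT), Atf5 at 1.83 (-0.78 and 1.05), Peg10 at 1.47 (-0.67 and 0.80), Peg3 at 1.36 (-1.02 and 0.34), Cdkn1a at 0.94 (-0.67 and 0.27), Mirg at 0.93 (-0.53 and 0.41) and Lama1 at 0.72 (-0.24 and 0.48). Those lower in clone 2 were Phlda2 at -2.79 (1.59 and -1.20), Pros1, the anticoagulant protein S, at -1.51 (0.67 and -0.85), Btg2, an antiproliferative gene, at -0.72 (0.36 and -0.36) and Pdk1 at -0.58 (0.26 and -0.31).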

How the results depend on the processing

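No called autosomal gene changed direction under any alternative run. The count of 2028 was 1287 with DESeq2 (663 higher, 624 lower) and 319 against a minimum fold of 1.5 (102 higher, 217 lower). With each library left out it ranged from 921 (without clone 2 replicate 1) to 2998 (without clone 1 replicate 2). Other size factors, filters and sets of genes gave 1934 to 2316, and only the 4 knockout libraries 1615. A fit with the replicate number as a block called 2855. The main fit treated the libraries as unpaired. Replicate differences of the clones correlated at 0.13 over 14946 genes. With 2 libraries a clone this cannot show whether equal replicate numbers mark a pairing or a shared batch, which was not tested. The genes on in a single clone, 4 in all, were 0 at 2 CPM and 18 with the lower limit at 0.2 CPM, and 8 to 19 with a library left out. The chromosome 17 run kept 55 genes with a window of 25 genes or a minimum of 0.5. Of 205 named or listed called genes, 108 kept their call under all alternatives except the minimum fold. The cause of these shifts was not tested. With 2 libraries a clone, a difference between clones cannot be told apart from one between cultures, and low-count genes limit what the depth can show.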
